A study of Homo sapiens with 6 samples.

Results

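The genes described are 33 listed members of the NRF2 and redox defence programme, chosen by name with earlier results of these data known. Each was read from a probe set that the array's annotation assigns to that gene symbol alone, and where several such probe sets existed the one with the highest mean over the 6 arrays was used. By this rule 31 of the 33 genes were measured, out of 18132 genes in all. SOD2 was left out because its probe sets carry several gene symbols, and FTH1 was not analysed here. All 6 arrays came from DLD1, an established cell line of human colorectal cancer. The CDKL1 shRNA group was infected with lentivirus expressing a short hairpin RNA (an RNA processed in the cell into a small RNA that lowers a transcript of matching sequence) against the kinase gene CDKL1, and the control shRNA group with lentivirus expressing a control hairpin. Both groups therefore carried a lentivirus and came from 1 cell line, with 3 arrays each. The labels give neither the hairpin sequences nor the time between infection and harvest, and they do not say whether the 3 samples of a group were separate infections, so each p-value reflects sample-to-sample spread that could be technical. Values are log2 expression made by the authors with RMA, a method that normalises between arrays and compresses changes of dim probe sets, and changes are CDKL1 shRNA minus control shRNA.

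NRF2, the product of NFE2L2, is a transcription factor that is held in the cytoplasm and marked for degradation by KEAP1 in unstressed cells. Oxidants and electrophiles modify cysteines of KEAP1, NRF2 then accumulates, pairs with a small MAF protein such as MAFG and binds antioxidant response elements in its target genes. These targets make glutathione and thioredoxin-system enzymes, reduce quinones and carbonyls, store iron, supply NADPH and export conjugates, and in the gut epithelium they handle electrophiles from food and bacteria. NRF2 is controlled largely at the protein level, which arrays do not measure, and the pathway is often active in tumours.

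Facts of the whole experiment bear on each value below. The targeted transcript could not serve as a check of the knockdown: CDKL1 stood at 4.17 ± 0.09 in CDKL1 shRNA arrays and 4.37 ± 0.18 in control shRNA arrays (SD, n = 3 each), a log2 change of -0.19 that did not pass (limma, adjusted p = 0.219), at a level within the 2.97 to 4.92 of background control probe sets. Over all 18132 genes, 3040 (16.8%) passed an adjusted p of 0.05, 8.97% higher and 7.79% lower in CDKL1 shRNA. RNA quality was read from ACTB, as the log2 signal of its 3' control probe set minus that of its 5' one, which was 1.60 ± 0.115 in CDKL1 shRNA arrays and 1.40 ± 0.0133 in control shRNA arrays (SD, n = 3 each, exact two-sided permutation p = 0.1, the smallest possible here), with the highest value, 1.73, in CDKL1 shRNA replicate 2. The same measure from GAPDH was 0.275 ± 0.0262 in CDKL1 shRNA arrays and 0.203 ± 0.0180 in control shRNA arrays (SD, n = 3 each, exact two-sided permutation p = 0.1), and for both genes each CDKL1 shRNA array lay above each control array. With 3 arrays a group, precision is limited for all values, and in these bulk samples fewer cells of a type and less RNA per cell cannot be told apart. The epithelial marker EPCAM stood at 13.53 in CDKL1 shRNA arrays and 13.52 in control shRNA arrays, and of 10 colon epithelium markers KRT20 rose (0.52) and VIL1 fell (-0.57), while the median of the 7 fibroblast, 7 leukocyte and 5 endothelial markers measured stood at percentile 20.6, 21.6 and 31.4 of all gene means. Of these 19 markers 2 were called, the leukocyte markers CD163 (log2 change 0.65) and CD68 (0.39), and their part in the results below was not tested. Of the 7 leukocyte markers 3 had positive and 4 negative changes, among the latter PTPRC (-0.14, not called). CD163 averaged 4.56 in control shRNA arrays, within the background range.

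The redox genes did not move as 1 block. Of the 31 measured members 7 rose, 4 fell and 20 did not pass. AKR1C3 (1.66-fold), AKR1B10 (1.38-fold), UGDH (1.26-fold), GCLM (1.24-fold), SRXN1 (1.22-fold), TXNRD1 (1.16-fold) and FTL (1.16-fold) were higher in CDKL1 shRNA. ABCC3 (0.748 of the control level), CAT (0.812), GPX1 (0.851) and TKT (0.857) were lower. NFE2L2, KEAP1, NQO1 and HMOX1 did not pass. The 11 called members are 35.5% of those measured, against 16.8% of all genes, and the median log2 change was 0.00 over the members and -0.01 over all genes. The members are bright, with a median mean level at percentile 90.2 of all genes, and bright genes were called more often: among genes with a mean log2 level of at least 10, 27.8% were called overall and 7 of 18 members were (38.9%). The arrays of the 2 groups did not overlap for 18 of 31 members (58.1%), 9 in each direction, against 35.7% of all genes. With a mean level of at least 10 they did not overlap for 12 of 18 members (66.7%), against 60.1% of all genes at that level. The grouping by role and this level were chosen after values were seen. The list itself was chosen with earlier results of these data known, so its shares are a description and no test of an excess.

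The calls of GCLM, SRXN1, AKR1C3, FTL, ABCC3, CAT and GPX1 held with any 1 of the 6 arrays left out, and those of TXNRD1, AKR1B10, UGDH and TKT did not. In those fits 5 to 6 members were higher and 3 to 4 lower. Of all genes, 11.4%, 11.2% and 9.01% were called without CDKL1 shRNA replicates 1, 2 and 3, and 13.2%, 10.1% and 10.3% without control shRNA replicates 1, 2 and 3. With the replicate number as a block 4 members were higher and 3 lower, where 9.94% of all genes were called. Under the other settings, 17.8% of all genes were called after a further quantile normalisation (7 members higher and 6 lower), 15.3% after median subtraction (7 and 4) and 16.3% with the mean of all probe sets (8 and 5). The share was 14.2% without _s and _x probe sets (4 and 2 of 26) and 44% among genes brighter than the median gene (6 and 7 of 25). With an intensity trend and robust variance together it was 23.2% (8 and 8).

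**Figure D1:**
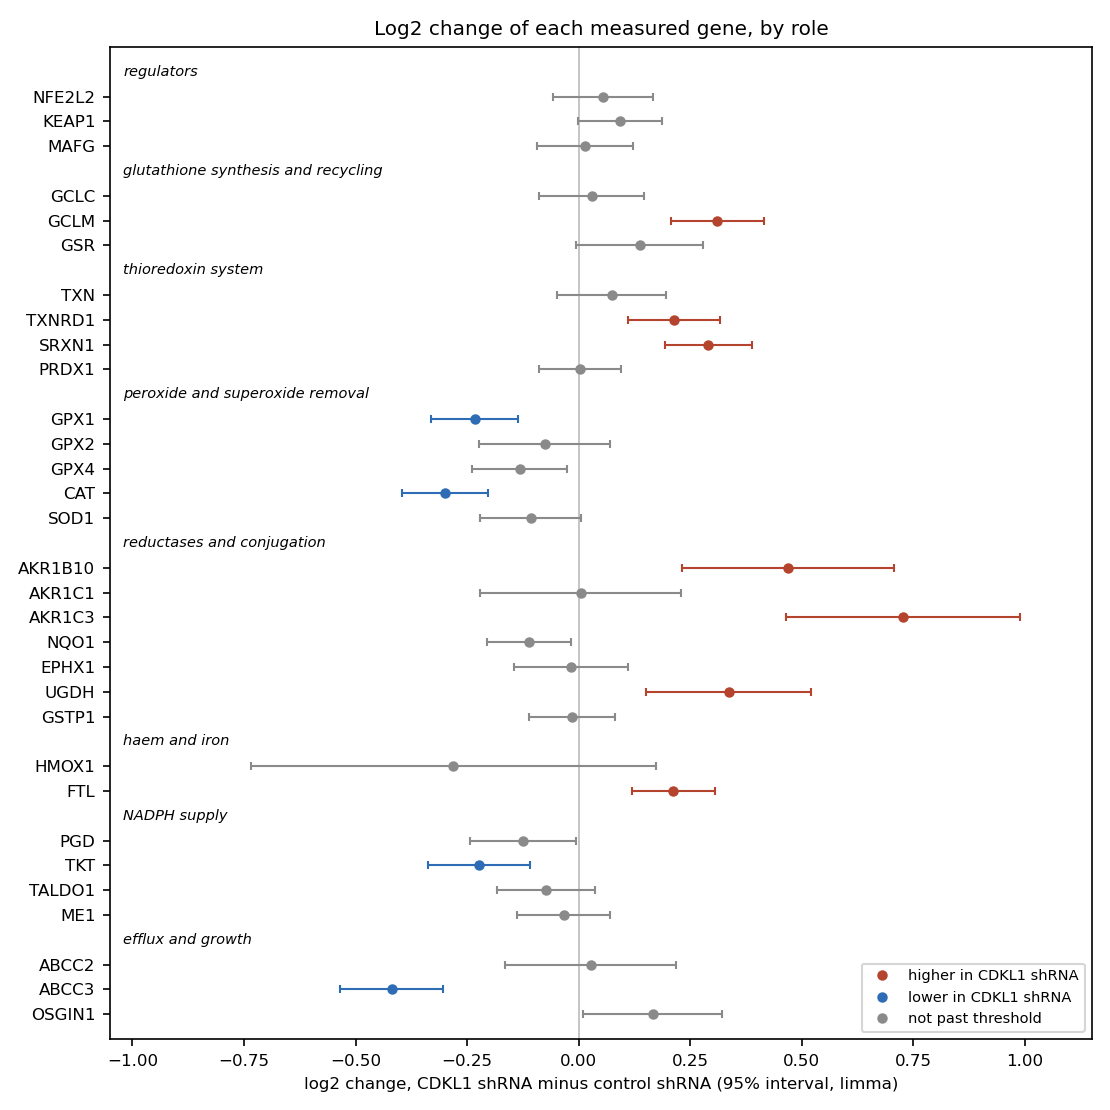
Log2 change of each of the 31 measured genes, CDKL1 shRNA minus control shRNA, as points with 95% intervals from limma, grouped by role down the page. The 7 red genes were called higher and the 4 blue genes lower. The 5 genes of peroxide and superoxide removal and the 4 of NADPH supply all have points below 0. Over all genes 54.2% had a negative change, and 43.5% of genes with a mean log2 level of at least 10 did. The roles were drawn after values were seen.

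The 3 regulators were read first, since they stand upstream of the rest. NFE2L2 read 12.15, 12.06 and 12.11 in the CDKL1 shRNA arrays, against 12.11, 12.04 and 12.02 in the control shRNA arrays. The groups overlapped, with a log2 change of 0.05 (95% interval -0.06 to 0.17, adjusted p = 0.504), and the second NFE2L2 probe set gave -0.07. KEAP1, the adaptor that presents NRF2 to the CUL3 ubiquitin ligase, read 9.85, 9.89 and 9.88 in CDKL1 shRNA arrays, against 9.78, 9.77 and 9.78 in control shRNA arrays. All 3 CDKL1 shRNA arrays lay above the control arrays, but the change of 0.09 did not pass (95% interval -0.000545 to 0.187, adjusted p = 0.170). MAFG, the small MAF partner, changed by 0.01 (adjusted p = 0.871), and 2 of its 4 probe sets hold identical values.

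In glutathione synthesis the subunits of glutamate-cysteine ligase, the rate-limiting enzyme, differed. GCLM, the modifier subunit, read 10.62, 10.55 and 10.64 in CDKL1 shRNA arrays, against 10.27, 10.31 and 10.30 in control shRNA arrays. The groups were well separated, a rise of 0.31 (SE 0.04, adjusted p = 0.00421), and the second GCLM probe set rose by 0.53. GCLC, the catalytic subunit, stood at 9.74 ± 0.05 in CDKL1 shRNA arrays and 9.72 ± 0.06 in control shRNA arrays (SD), a change of 0.03 (95% interval -0.09 to 0.15, adjusted p = 0.757), and its 4 probe sets ran from -0.10 to 0.11. GSR, which returns oxidised glutathione to its reduced form, changed by 0.14 and did not pass (adjusted p = 0.187).

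Of the 4 thioredoxin-system genes 2 rose and 0 fell, where 8.97% of all genes were called higher and 7.79% lower. All 4 are bright, and 27.8% of genes with a mean log2 level of at least 10 were called. The roles were drawn after values were seen. SRXN1 encodes sulfiredoxin, which restores over-oxidised peroxiredoxins, and averaged 11.27 ± 0.009 in CDKL1 shRNA arrays and 10.98 ± 0.035 in control shRNA arrays (SD), a rise of 0.29 (SE 0.04, adjusted p = 0.00432). TXNRD1, the cytosolic reductase that passes electrons from NADPH to thioredoxin, averaged 12.99 ± 0.046 in CDKL1 shRNA arrays and 12.78 ± 0.011 in control shRNA arrays, a rise of 0.21 (SE 0.04, adjusted p = 0.0169). The other 2 TXNRD1 probe sets, both dimmer, rose by 0.48 and 0.49. The call of TXNRD1 in its brightest probe set was lost without CDKL1 shRNA replicate 1 (adjusted p = 0.0534) or replicate 3 (adjusted p = 0.0689), and without control shRNA replicate 2 (adjusted p = 0.0632) or replicate 3 (adjusted p = 0.0556). TXN, thioredoxin itself, changed by 0.07 (adjusted p = 0.402), and its 5 probe sets lay between 0.01 and 0.08. PRDX1, an abundant peroxiredoxin that uses thioredoxin, changed by 0.00 (95% interval -0.09 to 0.10, adjusted p = 0.975).

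The 5 measured genes of peroxide and superoxide removal had negative changes, and 2 of them fell. Over all genes 54.2% had a negative change and 7.79% were called lower. Among genes with a mean log2 level of at least 10, where GPX1, GPX4 and SOD1 lie, 43.5% had a negative change. The roles were drawn after values were seen, and PRDX1 (0.00) was placed in the thioredoxin system. Outside the members, among glutathione peroxidases and superoxide dismutases, GPX8 rose (0.37), GPX3 did not pass (0.25) and SOD3 fell (-0.16). CAT encodes catalase, the peroxisomal enzyme that splits hydrogen peroxide, and averaged 9.84 ± 0.032 in CDKL1 shRNA arrays and 10.14 ± 0.007 in control shRNA arrays (SD), a fall of 0.30 (log2 change -0.30, SE 0.04, adjusted p = 0.00367). Its second probe set also fell (-0.24). GPX1, the widespread cytosolic glutathione peroxidase and a selenoprotein, averaged 11.83 ± 0.034 in CDKL1 shRNA arrays and 12.06 ± 0.012 in control shRNA arrays, with a log2 change of -0.23 (SE 0.04, adjusted p = 0.0100) and -0.29 in its second probe set. GPX4, which reduces lipid hydroperoxides in membranes, had a change of -0.13 (adjusted p = 0.0943), and SOD1, the cytosolic copper and zinc superoxide dismutase, of -0.11 (adjusted p = 0.185). For both, the 3 CDKL1 shRNA arrays lay below the 3 control shRNA arrays. GPX2, the gastrointestinal glutathione peroxidase, overlapped between groups at -0.08 (adjusted p = 0.473). GPX4 was called lower under 4 alternatives (adjusted p = 0.00631 to 0.0444) and SOD1 under 1 (adjusted p = 0.0185). The settings for GPX4 called 16.3% to 44% of the genes fitted and that for SOD1 23.2%, against 16.8% in the main fit.

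**Figure D2:**
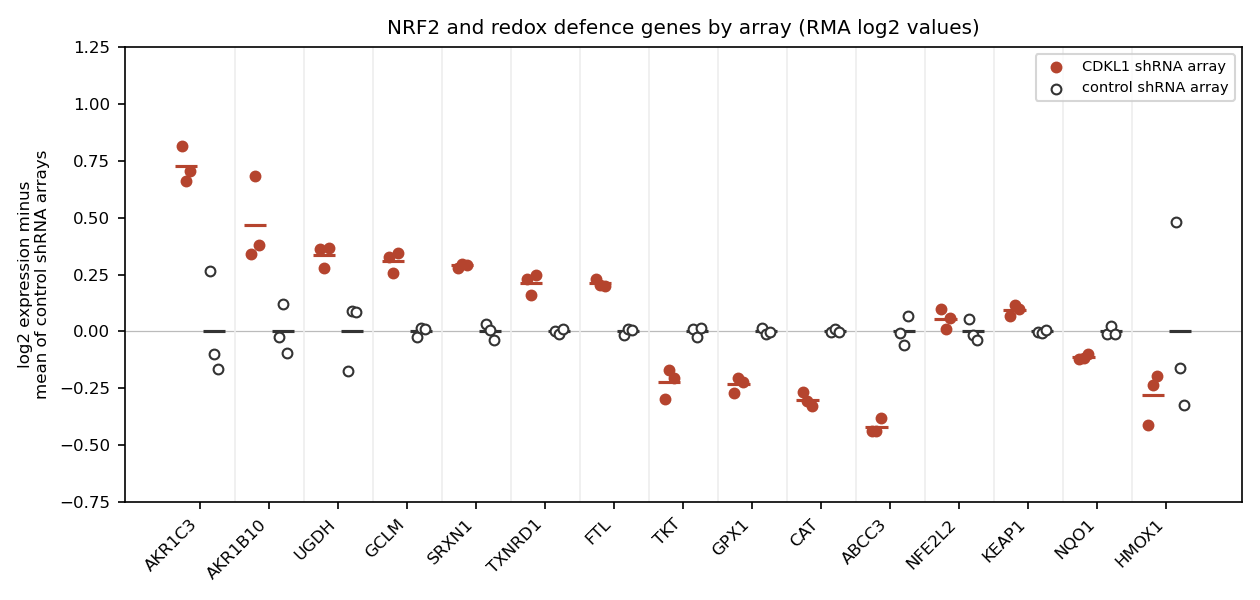
Log2 expression of the 11 called genes and of NFE2L2, KEAP1, NQO1 and HMOX1 on each array, minus the gene's mean over the control shRNA arrays, with CDKL1 shRNA arrays as filled and control shRNA arrays as open points and short lines at group means. For the called genes no CDKL1 shRNA array falls among the control arrays, while NFE2L2 and HMOX1 overlap, HMOX1 with 1 control array far above the rest.

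Among reductases and conjugating enzymes 3 of 7 rose and 0 fell, where 8.97% of all genes were called higher and 7.79% lower. This role too was drawn after values were seen. AKR1C3, an aldo-keto reductase of steroids and prostaglandins, read 7.10, 6.94 and 6.99 in CDKL1 shRNA arrays, against 6.55, 6.18 and 6.12 in control shRNA arrays. The groups did not overlap although control shRNA replicate 1 stood above the other controls, and the rise was 0.73 (SE 0.11, adjusted p = 0.00571). The second AKR1C3 probe set, at a mean of 3.68 within the background range, gave 0.09, and the mean of both 0.41 (adjusted p = 0.00566). AKR1B10, an aldo-keto reductase of retinal and other carbonyls that is normally present in the intestine, read 6.01, 6.35 and 6.05 in CDKL1 shRNA arrays, against 5.64, 5.79 and 5.57 in control shRNA arrays. CDKL1 shRNA replicate 2 was the highest and the groups did not overlap, with a rise of 0.47 (SE 0.10, adjusted p = 0.0209) and 0.62 in the second probe set. The AKR1B10 call was lost without control shRNA replicate 1 (adjusted p = 0.0639) or control shRNA replicate 3 (adjusted p = 0.0674). AKR1C1, nearly identical to another AKR1C gene, was read at 3.45 in both groups, within the background range, so its change of 0.00 is not a measure of that gene.

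UGDH, which makes the UDP-glucuronic acid used for glucuronidation, read 10.96, 10.88 and 10.97 in CDKL1 shRNA arrays, against 10.42, 10.69 and 10.68 in control shRNA arrays. Control shRNA replicate 1 was the lowest and the groups did not overlap, with a rise of 0.34 (SE 0.08, adjusted p = 0.0280) and 0.31 in the second probe set. The UGDH call was lost without CDKL1 shRNA replicate 1 (adjusted p = 0.0900), replicate 2 (adjusted p = 0.0508) or replicate 3 (adjusted p = 0.0932). NQO1, the quinone reductase most often used as a readout of NRF2, read 12.98, 12.99 and 13.00 in CDKL1 shRNA arrays, against 13.09, 13.12 and 13.09 in control shRNA arrays. All 3 CDKL1 shRNA arrays were below the controls, yet the change of -0.11 did not pass (95% interval -0.20 to -0.02, adjusted p = 0.105). NQO1 was called lower under 3 alternatives: the mean of its probe sets (adjusted p = 0.0279), genes brighter than the median gene (adjusted p = 0.0239) and the intensity trend with robust variance (adjusted p = 0.00491). In that order these settings called 16.3%, 44% and 23.2% of the genes fitted, against 16.8% in the main fit. Its second probe set passed in the fit over all probe sets, in which 12.8% were called, at -0.19 (adjusted p = 0.0321). The glutathione transferase gene GSTP1 changed by -0.01 (adjusted p = 0.854), and the epoxide hydrolase gene EPHX1 by -0.02 (adjusted p = 0.877).

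Of the haem and iron genes, HMOX1 encodes haem oxygenase-1, which breaks down haem and is induced by many stresses. It read 6.65, 6.82 and 6.86 in CDKL1 shRNA arrays, against 7.54, 6.90 and 6.73 in control shRNA arrays. The groups overlapped and the high value was that of control shRNA replicate 1. The change was -0.28 (95% interval -0.73 to 0.17, adjusted p = 0.390), and without that array it was -0.04 (adjusted p = 0.816). FTL, the ferritin light chain that stores iron, averaged 14.29 ± 0.015 in CDKL1 shRNA arrays and 14.08 ± 0.012 in control shRNA arrays (SD), a rise of 0.21 (SE 0.04, adjusted p = 0.0120). All 8 FTL probe sets were called higher, with changes of 0.21 to 0.31, but all 8 have suffixes that mark possible binding to related transcripts, so they may include signal of other ferritin light chain copies. All probe sets of SRXN1, UGDH, GPX1 and TXN carry such suffixes too, so the same limit on specificity applies to them.

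The 4 measured NADPH-supply genes had negative changes, and 1 fell, where 54.2% of all genes had a negative change and 7.79% were called lower. All 4 have a mean log2 level of at least 10. Among genes at that level 43.5% had a negative change, and 342 of 3068 were called lower. The roles were drawn after values were seen. TKT, the transketolase of the pentose phosphate pathway, averaged 11.69 ± 0.065 in CDKL1 shRNA arrays and 11.91 ± 0.020 in control shRNA arrays (SD), a change of -0.22 (SE 0.05, adjusted p = 0.0212). Its other probe sets gave -0.16 and 0.09, and neither was called. The TKT call was lost without CDKL1 shRNA replicate 1 (adjusted p = 0.0540) or 3 (adjusted p = 0.0618), and without any 1 control shRNA array (adjusted p = 0.0526 to 0.0727). It was also lost with the mean of its probe sets (-0.10, adjusted p = 0.161). PGD, which makes NADPH in the oxidative branch, changed by -0.12 (adjusted p = 0.151), and its second probe set by -0.12. TALDO1, the transaldolase, changed by -0.07 (adjusted p = 0.345), and its far dimmer second probe set was called in the opposite direction, at 0.36. The malic enzyme gene ME1 changed by -0.03 (95% interval -0.14 to 0.07, adjusted p = 0.676). With the mean of all probe sets TALDO1 and ME1 turned positive, at 0.145 and 0.01137.

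ABCC3, an efflux pump of glucuronide conjugates and bile salts, was called lower. It read 7.493, 7.495 and 7.550 in CDKL1 shRNA arrays, against 7.925, 7.872 and 7.999 in control shRNA arrays. The groups did not overlap, with a log2 change of -0.42 (SE 0.05, adjusted p = 0.00204) and -0.27 in the second probe set, also called, which is the value when _s and _x probe sets are left out. ABCC2, a related pump, changed by 0.03 (adjusted p = 0.867). OSGIN1, an NRF2-induced inhibitor of growth, changed by 0.17 in its brightest probe set (adjusted p = 0.143), with all CDKL1 shRNA arrays above the controls, and by 0.43 in the other (adjusted p = 0.0260).

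Readings of 1 gene by several probe sets could thus differ in size. The 31 members had 74 probe sets of a single symbol, and 26 members had more than 1. In 17 of these 26 all probe sets had the same sign, and the same count over all genes was not made. GCLM and TXNRD1 rose more in their dimmer probe sets, and TKT and TALDO1 had probe sets of opposite sign.

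**Figure D3:**
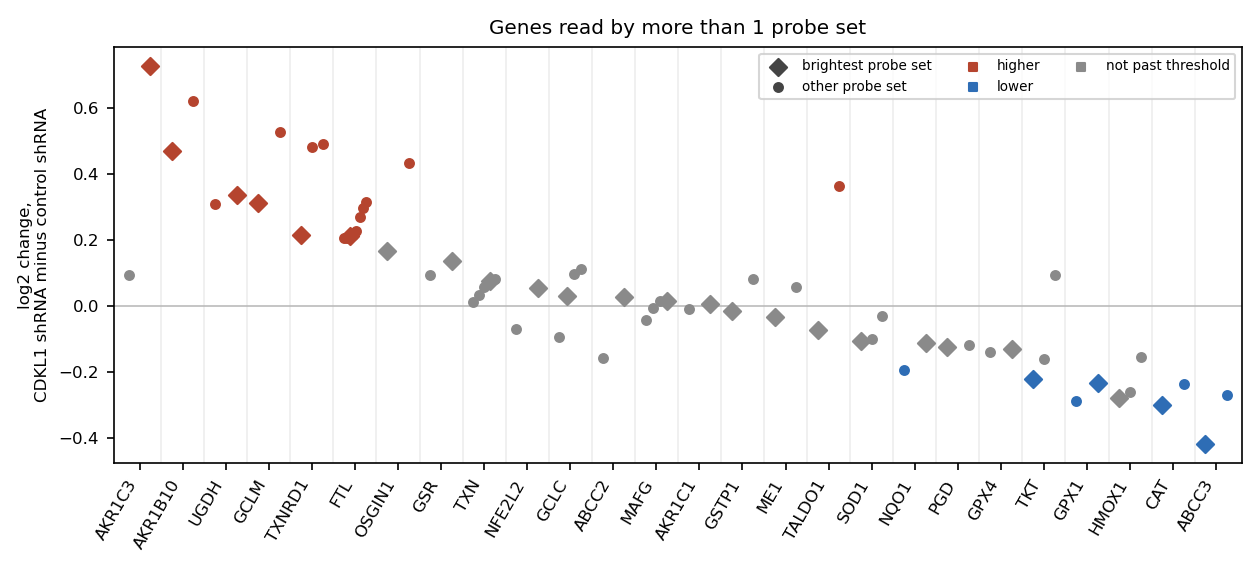
Log2 change (CDKL1 shRNA minus control shRNA) of each single-symbol probe set of the 26 genes read by more than 1, with the brightest as a diamond and colour for the call in a fit over all probe sets. FTL has 8 probe sets at 0.21 to 0.31, whereas the TALDO1 readings lie at -0.07 and 0.36.

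Promoter letters were compared with these changes, because NRF2 binds the antioxidant response element, whose core is TGACNNNGC. RefSeq promoter windows of GRCh38.p14, from 250 bases before to 50 after a start, were matched for 25 of the 31 measured members and searched on both strands. The core was found in 9 of their 33 windows (27.27%), against 13.35% of 35116 windows in the table, which is a description of letters and not of binding. By gene, it was in the windows of 2 of 6 members that rose (GCLM and TXNRD1), 0 of 3 that fell, and 6 of 16 that did not pass (EPHX1, GPX2, GSTP1, KEAP1, ME1 and PGD). Sequence outside these windows was not searched, so a window without the core does not show that the gene lacks such an element. The core can contain the AP-1 motif TGANTCA, which was in 7.709% of all windows. In the ME1 and GSTP1 windows the core reads TGACTCAGC and overlaps that motif. The 250 bases before the start are shown for the members that rose with a core and for these 2 that did not pass, with the core in capitals on whichever strand it lies (a core on the opposite strand appears as its reverse complement). These 4 genes were picked after values were seen, and TXNRD1 has 2 windows in the table. The windows are TXNRD1 start 1 at chr12:104215529-104215778 and start 2 at chr12:104286782-104287031 (plus strand), GCLM at chr1:93909431-93909680 (minus strand), GSTP1 at chr11:67583562-67583811 (plus strand) and ME1 at chr6:83431052-83431301 (minus strand).
TXNRD1 start 1: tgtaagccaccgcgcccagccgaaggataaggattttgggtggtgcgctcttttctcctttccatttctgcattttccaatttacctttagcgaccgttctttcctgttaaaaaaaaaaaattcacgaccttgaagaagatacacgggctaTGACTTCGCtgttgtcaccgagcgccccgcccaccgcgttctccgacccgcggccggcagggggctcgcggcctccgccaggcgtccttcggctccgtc
TXNRD1 start 2: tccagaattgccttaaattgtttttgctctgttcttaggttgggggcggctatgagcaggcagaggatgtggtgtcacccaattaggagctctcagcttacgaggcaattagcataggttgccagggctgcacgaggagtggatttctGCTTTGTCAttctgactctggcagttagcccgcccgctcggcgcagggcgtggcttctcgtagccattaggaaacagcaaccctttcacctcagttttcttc
GCLM: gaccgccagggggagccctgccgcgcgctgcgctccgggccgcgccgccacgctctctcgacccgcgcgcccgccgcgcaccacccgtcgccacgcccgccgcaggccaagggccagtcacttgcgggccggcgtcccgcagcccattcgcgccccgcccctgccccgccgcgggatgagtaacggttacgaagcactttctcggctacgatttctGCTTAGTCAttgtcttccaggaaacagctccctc
GSTP1: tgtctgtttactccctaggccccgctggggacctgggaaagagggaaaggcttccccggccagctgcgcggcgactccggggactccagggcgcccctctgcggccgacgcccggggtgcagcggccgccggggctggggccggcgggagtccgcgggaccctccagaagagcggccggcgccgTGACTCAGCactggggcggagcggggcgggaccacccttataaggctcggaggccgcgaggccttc
ME1: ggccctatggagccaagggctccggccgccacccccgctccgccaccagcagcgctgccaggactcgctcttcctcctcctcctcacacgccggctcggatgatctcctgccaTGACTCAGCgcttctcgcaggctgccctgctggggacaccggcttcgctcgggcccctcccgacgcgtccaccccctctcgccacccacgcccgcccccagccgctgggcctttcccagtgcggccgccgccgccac
The core lies at positions -99 to -91 and -102 to -94 from the TXNRD1 starts, -34 to -26 from the GCLM start, -66 to -58 from the GSTP1 start and -137 to -129 from the ME1 start. A further TXNRD1 core spans the first start and a further ME1 core follows the start, neither shown in full. The core was thus present both in genes that rose and in genes that did not pass: GCLM and TXNRD1 rose by 0.31 and 0.21, while GSTP1 and ME1 changed by -0.01 and -0.03.

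Other genes of the same pathway, a list of 76 of which 65 were measured, also moved in both directions: 10 rose, 7 fell and 48 did not pass (26.2% called, against 16.8% of all genes), with a median log2 change of 0.01. These genes are bright as well, with a median level at percentile 78.0, and among those with a mean log2 level of at least 10, 8 of 28 were called (28.6%), against 27.8% of all genes at that level. This list too was chosen with earlier results of these data known, so its shares are a description and no test. The split was 10 higher and 15 lower after a further quantile normalisation, and 10 and 4 with array medians subtracted. Glutathione genes held 7 of the 17 calls among 14 measured, 5 higher and 2 lower. Both subunits of the cystine importer rose, SLC7A11 by 0.23 and SLC3A2 by 0.23, as did the microsomal glutathione transferase genes MGST3 (0.26) and MGST1 (0.23) and the endoplasmic reticulum peroxidase gene GPX8 (0.37). The transferase genes GSTA4 (-0.40) and MGST2 (-0.19) fell, GSTA4 without a call when _s and _x probe sets were left out (adjusted p = 0.0559). With the ACTB covariate GSTA4 was -0.20 (adjusted p = 0.314), and none of these 7 glutathione genes kept its call. Of the 17 called pathway genes only ABCG2, SQSTM1 and NFE2L3 did, in a fit where 1.21% of all genes were called. The mean over its probe sets was 0.17 for GPX8, and SLC7A11 was 0.42 without _s and _x probe sets, both still called.

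Among the other regulators measured, 1 of 7 rose and 2 fell, where 8.97% of all genes were called higher and 7.79% lower. SQSTM1, the autophagy receptor that binds KEAP1 and is itself an NRF2 target, read 12.64, 12.67 and 12.64 in CDKL1 shRNA arrays, against 12.10, 12.04 and 12.11 in control shRNA arrays, a rise of 0.57 (adjusted p = 0.000392). The groups did not overlap. NFE2L1 and NFE2L3, relatives of NRF2, fell by 0.26 and 0.56 on the log2 scale, with NFE2L1 losing its call under the mean of all its probe sets (-0.08, adjusted p = 0.319). The efflux pump gene ABCG2 stood at 7.91, 7.75 and 7.89 in CDKL1 shRNA arrays, against 6.83, 6.99 and 6.96 in control shRNA arrays, a change of 0.93 (adjusted p = 0.000305). With the mean of all probe sets the rise of ABCG2 was 0.47 and that of SQSTM1 0.65. ABCG2 thus moved opposite to ABCC3 in the same arrays.

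PRDX2, a cytosolic peroxiredoxin, fell by 0.40 on the log2 scale, with arrays at 11.88 to 11.89 in CDKL1 shRNA and 12.28 to 12.29 in control shRNA. TFRC, the transferrin receptor that brings iron into cells, rose by 0.22, and PTGR1, a reductase of unsaturated carbonyls, rose by 0.22. The remaining 3, named after their values were seen, were TXNIP (0.26), which inhibits thioredoxin, POR (-0.18), the electron donor of cytochromes P450, and SOD3 (-0.16), the extracellular superoxide dismutase. Without _s and _x probe sets TXNIP was 0.13 (adjusted p = 0.310) and SOD3 -0.26 (adjusted p = 0.0612). None of the 7 measured genes of the NADPH sub-list passed in limma, although all 7 had an unadjusted p under 0.05 and 6 had negative changes. Over all genes 29.8% had an unadjusted p under 0.05 and 54.2% a negative change.

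Calls of the smaller changes were often lost when 1 array was left out. Those fits held fewer arrays, and 9.01% to 13.2% of all genes were called in them, against 16.8% with all arrays. SLC7A11 did not pass without CDKL1 shRNA replicate 3 (adjusted p = 0.0559), TFRC without CDKL1 shRNA replicate 2 or 3 or control shRNA replicate 2 (adjusted p = 0.0530 to 0.0648), and MGST1 without any 1 of the CDKL1 shRNA replicates (adjusted p = 0.0504 to 0.0645). SLC3A2 did not pass without CDKL1 shRNA replicate 2 or 3 or control shRNA replicate 2 or 3 (adjusted p = 0.0583 to 0.0767), PTGR1 without any array but control shRNA replicate 2 (adjusted p = 0.0517 to 0.0832), and MGST2 without CDKL1 shRNA replicate 1 or 3 or control shRNA replicate 2 or 3 (adjusted p = 0.0941 to 0.120). TXNIP did not pass without any array but CDKL1 shRNA replicate 1 (adjusted p = 0.0728 to 0.138), and POR and SOD3 did not pass without any 1 of the 6 (highest adjusted p = 0.122 and 0.153). ABCG2, SQSTM1, NFE2L3, PRDX2, GPX8, MGST3, NFE2L1 and GSTA4 were called in each of the 6 fits with 1 array left out.

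**Figure D4:**
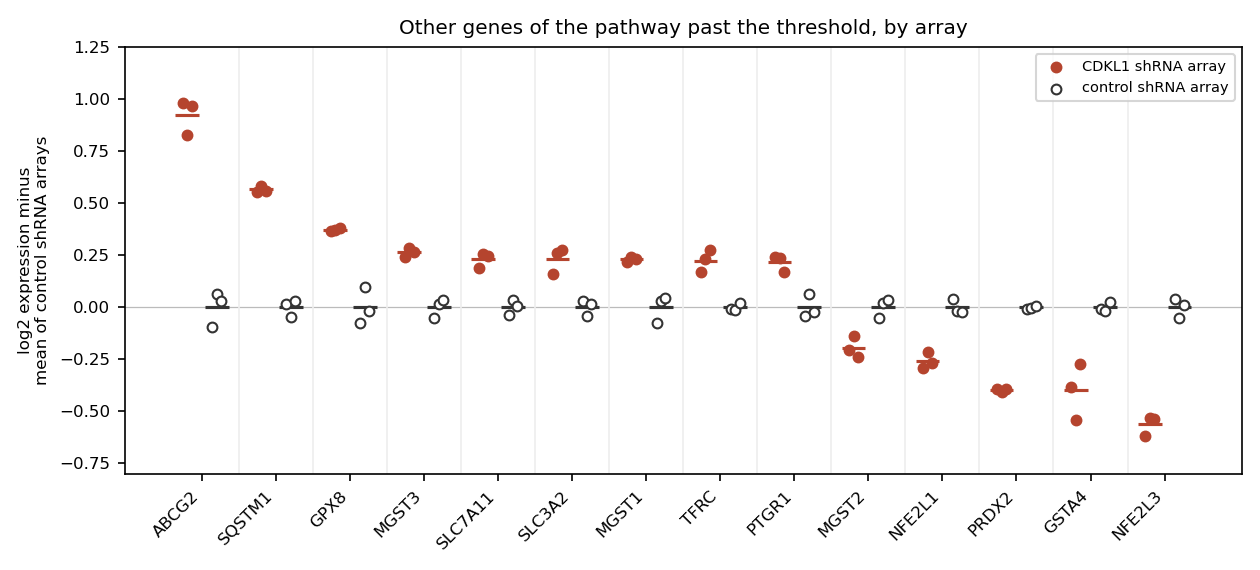
Log2 expression on each array, minus the gene's mean over the control shRNA arrays, of the 14 other pathway genes with the smallest adjusted p, with CDKL1 shRNA arrays as filled and control shRNA arrays as open points. ABCG2 and SQSTM1 stand highest, and NFE2L3, GSTA4 and PRDX2 lowest.

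The ACTB 3' minus 5' difference, higher in each CDKL1 shRNA array than in each control array, moved with the groups. With it as a covariate in limma, 0 of the 31 members passed, where 1.21% of all genes did, and 10 had an unadjusted p under 0.05, where 19.3% of all genes did. The 11 called members kept their sign in this fit, at 0.275 to 1.38 times the plain change with a median of 1.13, while their median SE was 0.0818 with the covariate and 0.0442 without it. Those 11 were selected by the plain fit to the same arrays, so kept signs are no separate support for the changes. AKR1B10 was the one that shrank most, to 0.13 (adjusted p = 0.548), against 0.47 without the covariate. GCLM was 0.38 with it and 0.31 without, AKR1C3 was 0.82 and 0.73, and ABCC3 was -0.39 and -0.42, with adjusted p of 0.0818, 0.121 and 0.116 in the covariate fit.

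**Figure D5:**
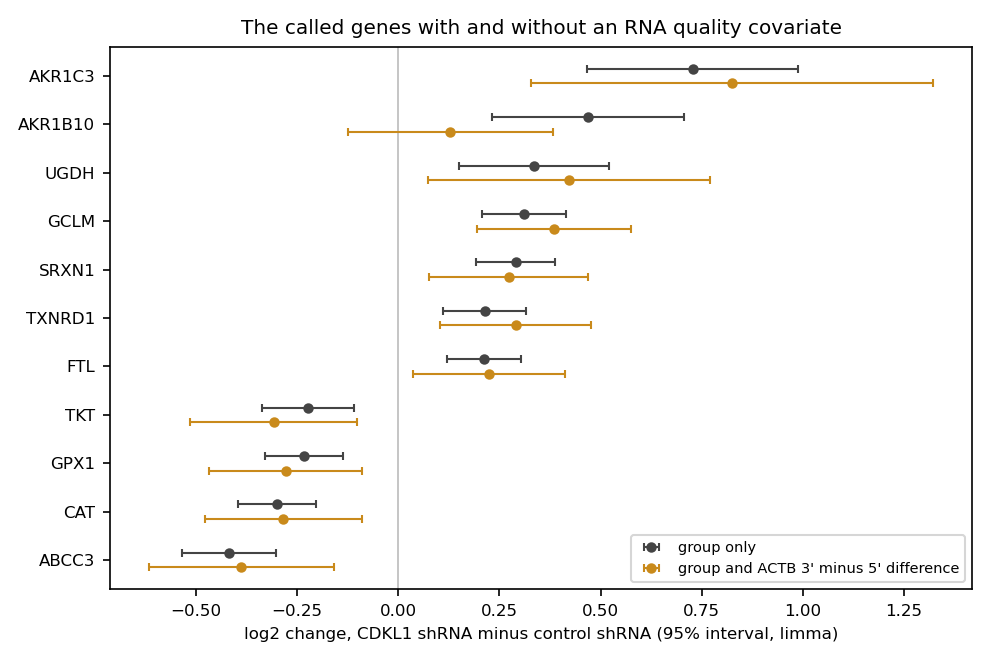
Log2 change of the 11 called genes (CDKL1 shRNA minus control shRNA) with 95% intervals from limma, with group as the only term (dark) and with the ACTB 3' minus 5' difference added (amber). The amber intervals are wider, and for AKR1B10 the amber point lies at 0.13 with an interval across 0.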

How the data were processed

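Total RNA of DLD1 cells was hybridised to Affymetrix expression arrays, 3 per group. Per the submitters' processing notes RMA was used, and the deposited values are log2, with RMA's version and settings not named in the labels. The table holds 49395 probe sets, of which 102 are controls, 44988 carry 1 gene symbol in the platform annotation, 1832 several and 2473 none. No filter on dim genes was applied. Groups came from the sample titles. limma 3.58.1 in R 4.3.3 (lmFit, eBayes, two-sided) was fitted to 18132 genes with group as the only term, and p was adjusted over all genes (Benjamini-Hochberg, threshold 0.05). The fit was tested on simulated data, where it missed part of the smaller changes. Figures were made with Python 3.11.15 and matplotlib 3.10.9. The members, the pathway list and the tests were chosen with earlier results of these data known. Named in the text are all measured members, with arrays shown for called changes of at least 0.3 and for NFE2L2, KEAP1, NQO1 and HMOX1, and the called pathway genes. Alternatives were a replicate block, each array left out, 2 other normalisations and 2 other choices of probe set. Further ones were a filter on dim genes, an intensity trend with robust variance, and the ACTB covariate.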

Additional observations from a re-analysis of the deposited data

How the results depend on the processing

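Over the 31 members 350 of the recomputed changes kept direction and side of the threshold, 31 lost the call, 14 gained one and 28 turned sign. The gained calls were 4 of GPX4, 3 of NQO1, 3 of PGD, 2 of OSGIN1, 1 of GSR and 1 of SOD1. Of the recomputed changes of the called pathway genes, 171 kept direction and side of the threshold, 65 lost the call and 0 turned sign. Those genes were selected by the plain fit to the same arrays, so kept signs are no separate support. The members numbered 7 higher and 4 lower. With the replicate block they were 4 and 3, without _s or _x probe sets 4 and 2 of 26 genes, and over genes brighter than the median 6 and 7 of 25. They were 8 and 8 with the intensity trend and robust variance, and 0 and 0 with the ACTB covariate (10 with an unadjusted p under 0.05). Pathway genes, 10 and 7, became 6 and 4 with the block, 10 and 15 with further quantile normalisation, and 10 and 4 with the array median subtracted. They became 12 and 19 over bright genes, 13 and 21 with the trend and robust variance, and 2 and 1 with the covariate. All genes, 1627 and 1413, became 1024 and 779 with the block and 109 and 110 with the covariate. With 1 array left out, all genes gave 895 to 1314 higher and 738 to 1085 lower, members 5 to 6 and 3 to 4, and pathway genes 4 to 8 and 4 to 10. These fits held fewer arrays. Without _s or _x probe sets the called SRXN1, UGDH, FTL and GPX1 were not measured, and TKT lost its call (adjusted p = 0.131). AKR1C3 and AKR1B10 are dimmer than the median gene, so the fit over brighter genes left them out. The cause of the other shifts was not tested. The members' median change, 0.004333, was -0.01563 without _s or _x probe sets, -0.03136 with the covariate, and -0.01818 to 0.0244 with 1 array left out. Leaving arrays out of the RNA quality measures was chosen after seeing the data, and gave 0.132 to 0.239 for ACTB and 0.0611 to 0.0866 for GAPDH.

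Sign turned only for members that were not called. With the mean of all probe sets the log2 change was -0.00785 for NFE2L2, -0.004844 for MAFG, -0.002533 for AKR1C1, 0.03258 for GSTP1, 0.145 for TALDO1, 0.01137 for ME1 and -0.06535 for ABCC2. Without _s or _x probe sets it was -0.0704 for NFE2L2 and -0.0094 for AKR1C1, and with further quantile normalisation -0.0204 for MAFG and -0.005117 for PRDX1. With the ACTB covariate it was -0.03136 for MAFG, -0.04754 for GCLC, -0.2076 for AKR1C1, -0.2177 for ABCC2 and -0.0009101 for OSGIN1. With 1 array left out, MAFG ran from -0.01307 to 0.03305, PRDX1 from -0.006633 to 0.01047, AKR1C1 from -0.05666 to 0.09418, EPHX1 from -0.04308 to 0.03024, GSTP1 from -0.02708 to 0.001067 and ABCC2 from -0.05211 to 0.1086.

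The replicate numbers were not found to pair the arrays: deviations from group means of same-numbered arrays correlated across genes at -0.03, -0.12 and 0.07, and not every array correlated best with its own number. With the replicate block TXNRD1 (adjusted p = 0.0550), UGDH (adjusted p = 0.0636), FTL (adjusted p = 0.0541) and TKT (adjusted p = 0.0661) did not pass.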
